A study of Homo sapiens with 18 samples.

Results

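The genes of the major histocompatibility complex (MHC) class I pathway were described in Saos-2, an established human osteosarcoma (OS) cell line that the labels spell Soas-2 and give as wild type. The 9 genes were chosen by name (HLA-B, HLA-C, HLA-E, B2M, TAP1, TAP2, TAPBP, PSMB8 and PSMB9), and each was found once among the 50119 genes listed. Poly(A) RNA of 18 libraries was measured, 3 in each of 6 groups. D-2 was flat (2D) culture, D-3 was cells mixed into Matrigel, and DP-3 was cells printed in a bioink of methacrylated gelatin and alginate. These were taken on day 14, and DP-3 was also taken on day 1. FIT was fresh tumor, grown for 14 days after Saos-2 cells in Matrigel were placed under the skin of the axilla of female BALB/c nude mice, which lack T cells. IT was pieces of such tumors that were cultured on Matrigel, also for 14 days. Matrigel was thus part of D-3, IT and FIT, and not of D-2 or DP-3. Each excised tumor was divided between IT and FIT, and the replicate numbers are not said to pair the libraries.

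MHC class I molecules show peptides from inside the cell to CD8 T cells and are also read by natural killer cells. The proteasome cuts proteins into peptides, and its interferon-inducible subunits PSMB8 and PSMB9 replace PSMB5 and PSMB6 in the immunoproteasome. TAP1 and TAP2 form the transporter that carries peptides into the endoplasmic reticulum, tapasin (TAPBP) holds the empty heavy chain next to it, and beta-2-microglobulin (B2M) is the light chain that every class I heavy chain needs. Tumor cells can lower the whole set, and interferons raise it.

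Of the 9 genes, 8 lie on the short arm of chromosome 6 and B2M lies on chromosome 15. The positions listed with the data equal those of GENCODE release 29 on GRCh38 for B2M and TAP1. For the other genes they lie near them but differ at 1 end or both. As listed, TAP2 (chr6:32821833-32838770), PSMB8 (chr6:32840717-32844679), TAP1 (chr6:32845209-32853978) and PSMB9 (chr6:32844136-32859851) fall within 38019 bases. HLA-E (chr6:30489509-30494194), HLA-C (chr6:31268749-31272105) and TAPBP (chr6:33299694-33314251) lie outside this block, and B2M is at chr15:44711487-44718877. HLA-B is listed over 87689 bases (chr6:31269491-31357179), a span that holds HLA-C on the same strand, and PSMB9 overlaps TAP1 and PSMB8 on the opposite strand. The libraries kept the strand, but whether counting used it is not stated, so reads where these genes overlap could be split between them. Of all 50-base windows of the longest coding transcript, 2.54% in HLA-B, 6.71% in HLA-C and 4.66% in HLA-E also occurred in a transcript of another HLA gene or member, and with windows of 100 bases the highest share was 0.600%, for HLA-E.

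The promoters are shown because class I genes are known targets of interferon and NF-kB signalling, whose elements can be read in them. RefSeq starts were matched for 8 of the 9 genes on GRCh38.p14, in 10 windows from 250 bases before the start to 50 after it. Letters were searched on both strands and were chosen after the sequences had been read. The core of the interferon-stimulated response element (ISRE), GAAANNGAAA, occurred in 3.57% of all 35116 promoter windows and was found for B2M, TAP1, TAP2, TAPBP and PSMB8. A longer form, AGAANNGAAACT, occurred in 0.165% of windows and was found for HLA-B and HLA-C. The NF-kB decamer, which occurred in 11.3% of windows, was found for HLA-B, HLA-C, B2M, TAP1 and TAPBP. Each run below is on the strand of its gene, ends before the first annotated exon on that strand, and has the decamer and the ISRE in capitals in the order in which they occur. The HLA-B and HLA-C elements read AGAANNGAAACT on the opposite strand. The runs are HLA-B at chr6:31357189-31357429, HLA-C at chr6:31272131-31272342 and B2M, with the ISRE first, at chr15:44711267-44711486.
HLA-B: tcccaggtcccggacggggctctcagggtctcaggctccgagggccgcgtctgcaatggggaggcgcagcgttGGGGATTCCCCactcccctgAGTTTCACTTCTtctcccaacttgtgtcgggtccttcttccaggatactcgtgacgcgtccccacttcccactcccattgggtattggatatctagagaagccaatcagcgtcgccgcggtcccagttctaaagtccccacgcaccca
HLA-C: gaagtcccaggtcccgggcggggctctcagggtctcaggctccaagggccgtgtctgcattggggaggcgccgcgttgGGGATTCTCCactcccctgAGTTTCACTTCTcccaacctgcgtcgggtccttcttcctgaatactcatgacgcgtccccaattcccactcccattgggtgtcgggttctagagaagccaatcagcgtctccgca
B2M: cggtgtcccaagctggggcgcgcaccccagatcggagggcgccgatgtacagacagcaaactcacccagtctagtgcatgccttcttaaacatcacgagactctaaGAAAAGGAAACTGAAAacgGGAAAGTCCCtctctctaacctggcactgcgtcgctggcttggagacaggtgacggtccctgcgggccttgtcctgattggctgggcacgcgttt

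In the 30-base windows that follow, capitals mark the ISRE core alone, as 1 match or as overlapping matches. They lie at chr6:32853816-32853845 for TAP1, chr6:32838778-32838807 for TAP2, chr6:33314076-33314105 for TAPBP and chr6:32844032-32844061 for PSMB8, all on the minus strand. TAP1 and PSMB8 each had 2 starts, and the matches were in the window of 1 of them.
TAP1: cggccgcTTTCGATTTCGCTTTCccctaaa
TAP2: ctggggaagcGAAAGCGAAAgctgcccgag
TAPBP: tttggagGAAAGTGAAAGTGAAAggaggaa
PSMB8: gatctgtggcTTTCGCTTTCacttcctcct

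PSMB9 had none of these letters in its own window. TAP1 and PSMB9 are read in opposite directions from neighbouring starts, their windows overlap by 13 bases, and the TAP1 match lies 354 bases before the PSMB9 start. A match is a run of letters and was not tested for function.

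The summed estimated count of a library, the authors' value per gene, ran from 23721666 in FIT replicate 3 to 79082786 in D-2 replicate 3, and every other library had at least 50327345. About 4 estimated counts stand for 1 read pair. PSMB9 in DP-3 had the lowest count of any member, 579. Of the markers of the osteoblast lineage, RUNX2, COL1A1 and COL1A2 were detected in every library, while ALPL reached at most 0.148 FPKM, SP7 0.0949 FPKM and IBSP 0.0802 FPKM. Lymphocyte and leukocyte markers were near 0, with a summed level of 0.0581 to 0.568 FPKM over the 7 genes and PTPRC (CD45) at most 0.0625 FPKM. Over 6 endothelial markers the summed level was 3.90 to 6.52 FPKM in IT and FIT and 1.06 to 2.36 FPKM in all other groups, and the skeletal muscle sum over 7 genes was 5.23 FPKM in FIT replicate 3 against 0 to 1.01 FPKM in the others. The fibroblast sum over 5 genes, mostly PDGFRA, was 17.4 to 29.4 FPKM in FIT and 5.84 to 18.5 FPKM elsewhere, and the macrophage sum over 7 genes, mostly CD68, was 24.7 to 120 FPKM with no group apart. Which reads of the mouse host were kept is not given in the sources used here, and the part of host tissue in the levels below was not tested. D-3 had the lowest endothelial sums, 1.06 to 1.21 FPKM.

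FPKM, the authors' value, scales a gene's fragments to its length and to the library total, so it was used for levels. Over the 18 libraries, 7 of the 9 genes differed among the 6 groups at an adjusted p below 0.05 in an edgeR fit of all groups, against 37.3% of the 25977 genes tested. TAP2 (adjusted p = 0.0584) and TAPBP (adjusted p = 0.0759) were the others, and both passed by DESeq2. Group means spread most for HLA-B, whose highest group was 7.32 times its lowest, then PSMB9 at 4.57 times, and least for TAP2 at 1.35 times.

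**Figure D1:**
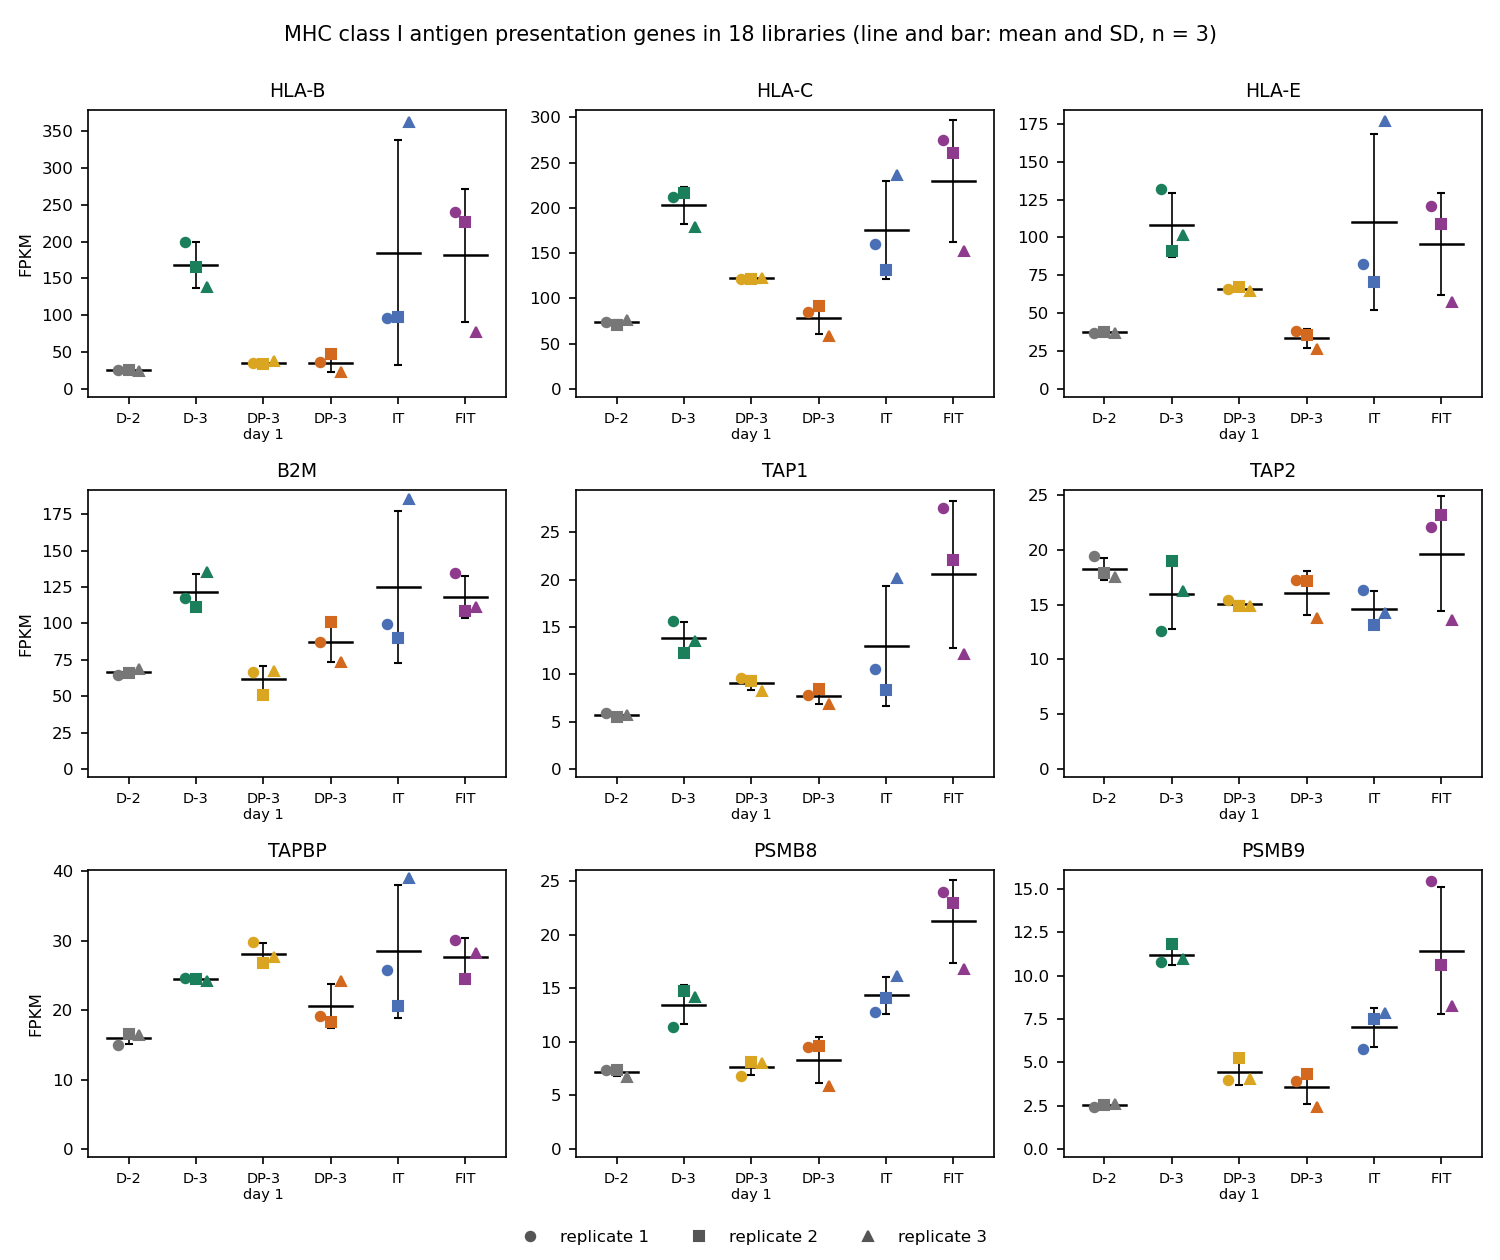
FPKM (vertical axes, from 0) of the 9 genes in every library of the 6 groups (horizontal axes). Points are libraries, shaped by replicate number, with the mean and SD (n = 3). Except for TAP2 and TAPBP, D-2 and DP-3 sat low and D-3, IT and FIT high, with IT replicate 3 the highest library for HLA-B at 362 FPKM.

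HLA-B, a classical heavy chain, had the widest range. Its level was 25.2, 26.0 and 24.8 FPKM in the 3 libraries of D-2, 35.5, 34.1 and 37.3 FPKM in DP-3 day 1, and 36.2, 47.7 and 22.7 FPKM in DP-3. It was 200.2, 166 and 139 FPKM in D-3, 95.7, 97.8 and 362 FPKM in IT, and 241, 227 and 77.2 FPKM in FIT. All 9 libraries of D-3, IT and FIT thus lay above all 9 of the other groups. Within FIT, replicate 3 was the lowest library, and within IT, replicate 3 stood far above its group. By their means the order was IT (185 ± 153 FPKM, SD, n = 3), FIT (182 ± 90.6), D-3 (168 ± 30.7), DP-3 day 1 (35.6 ± 1.61), DP-3 (35.5 ± 12.5) and D-2 (25.3 ± 0.579), and of the neighbours in this order only D-3 and DP-3 day 1 did not overlap.

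HLA-C, the other classical heavy chain, was the most abundant of the 9 in FIT. It reached 275, 260.4 and 153 FPKM there, 212, 216 and 179 FPKM in D-3, and 160.2, 131 and 236 FPKM in IT. Levels were 122, 122 and 122 FPKM in DP-3 day 1, 84.6, 91.8 and 58.8 FPKM in DP-3, and 74.0, 70.6 and 75.8 FPKM in D-2. DP-3 day 1 lay in between, below every library of D-3, IT and FIT and above every library of DP-3 and D-2. HLA-E, the heavy chain that natural killer cells read through CD94/NKG2A, had 132, 91.3 and 102 FPKM in D-3, 82.7, 70.6 and 177 FPKM in IT, and 121, 109 and 57.2 FPKM in FIT. It had 65.8, 67.4 and 65.0 FPKM in DP-3 day 1, 37.0, 37.7 and 37.1 FPKM in D-2, and 38.3, 35.9 and 26.2 FPKM in DP-3. FIT replicate 3 lay below DP-3 day 1 here, and DP-3 had the lowest mean of all groups.

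The heavy chains did not move in proportion. HLA-B made up 18.6% ± 0.658 (SD, n = 3) of the summed FPKM of HLA-B, HLA-C and HLA-E in D-2 and 15.9% ± 0.667 in DP-3 day 1. Its share was 23.7% ± 3.17 in DP-3, 34.9% ± 1.86 in D-3, 35.9% ± 9.67 in IT and 34.3% ± 6.36 in FIT. HLA-C made up 54.0% ± 1.25 in D-2 and 42.5% ± 3.36 in D-3. Ratios of these groups were not tested, but the ranges of the HLA-B share in D-2 (18.03% to 19.3%) and D-3 (33.1% to 36.8%) did not overlap.

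B2M, the shared light chain, varied less than the heavy chains. It had 64.8, 65.7 and 68.5 FPKM in D-2, 66.9, 51.0 and 67.0 FPKM in DP-3 day 1, and 87.6, 101 and 73.4 FPKM in DP-3. Levels were 117, 112 and 135 FPKM in D-3, 99.5, 90.1 and 185 FPKM in IT, and 135, 109 and 112 FPKM in FIT. D-3 and FIT overlapped each other and lay above all libraries of D-2, DP-3 day 1 and DP-3. The summed FPKM of the 3 heavy chains was 2.05 ± 0.0460 times that of B2M in D-2, 1.67 ± 0.183 times in DP-3, 3.996 ± 0.801 times in D-3 and 4.26 ± 1.51 times in FIT.

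Of the transporter subunits, TAP1 had 5.91, 5.44 and 5.70 FPKM in D-2 and 27.5, 22.0 and 12.2 FPKM in FIT, with 15.6, 12.3 and 13.5 FPKM in D-3, 9.65, 9.33 and 8.27 FPKM in DP-3 day 1, 7.79, 8.48 and 6.86 FPKM in DP-3, and 10.5, 8.29 and 20.2 FPKM in IT. D-2 was below every other library. TAP2 had 19.4, 17.9 and 17.5 FPKM in D-2, 12.6, 19.0 and 16.2 FPKM in D-3, 17.3, 17.1 and 13.8 FPKM in DP-3, and 22.1, 23.2 and 13.6 FPKM in FIT. Its values in IT (16.4, 13.2 and 14.2 FPKM) and DP-3 day 1 (15.4, 14.9 and 14.9 FPKM) lay in the same range, and FIT overlapped every group. The FPKM of TAP1 was 0.312 ± 0.0127 of that of TAP2 in D-2, 0.481 ± 0.0256 in DP-3, 0.907 ± 0.304 in D-3 and 1.03 ± 0.188 in FIT (mean ± SD, n = 3).

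TAPBP had 15.0, 16.5 and 16.5 FPKM in D-2, the lowest group, and 19.2, 18.3 and 24.2 FPKM in DP-3. The remaining groups lay between 20.5 and 39.1 FPKM, among them DP-3 day 1 at 29.8, 26.8 and 27.7 FPKM, D-3 at 24.6, 24.5 and 24.2 FPKM and FIT at 30.1, 24.5 and 28.2 FPKM. DP-3 day 1 thus overlapped FIT, as it also did for TAP2 and HLA-E.

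Of the immunoproteasome subunits, PSMB8 had 7.32, 7.39 and 6.74 FPKM in D-2, 6.82, 8.08 and 8.03 FPKM in DP-3 day 1, and 9.52, 9.61 and 5.82 FPKM in DP-3. It had 11.4, 14.8 and 14.2 FPKM in D-3, 12.8, 14.1 and 16.2 FPKM in IT, and 24.0, 22.9 and 16.8 FPKM in FIT. FIT lay above every other library for this gene. PSMB9 had 2.41, 2.53 and 2.58 FPKM in D-2, 3.99, 5.22 and 4.02 FPKM in DP-3 day 1, and 3.94, 4.31 and 2.43 FPKM in DP-3. In D-3 it had 10.8, 11.8 and 10.9 FPKM, in IT 5.74, 7.48 and 7.81 FPKM, and in FIT 15.5, 10.6 and 8.27 FPKM. IT stood between the low groups and the pair D-3 and FIT, overlapping neither.

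Set against the constitutive subunit each one replaces, PSMB9 was 4.01% ± 0.251 (SD, n = 3) of PSMB6 in D-2, 7.22% ± 1.32 in DP-3 day 1 and 7.23% ± 1.32 in DP-3. The ratio was 24.3% ± 3.16 in D-3, 19.0% ± 6.14 in IT and 26.9% ± 11.7 in FIT. PSMB8 as a share of PSMB5 was 11.0% ± 2.53 in D-2, 13.2% ± 1.95 in DP-3, 34.5% ± 11.4 in D-3 and 37.1% ± 9.23 in FIT. PSMB10, the remaining inducible subunit, was 6.41% ± 0.390 of PSMB7 in D-2, 8.75% ± 0.260 in DP-3, 12.9% ± 1.15 in D-3 and 18.1% ± 4.15 in FIT. The constitutive subunits themselves had group means of 43.0 to 67.4 FPKM for PSMB5, 38.4 to 62.6 FPKM for PSMB6 and 88.7 to 107 FPKM for PSMB7, so RNA of the constitutive form was the more abundant in every library.

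**Figure D2:**
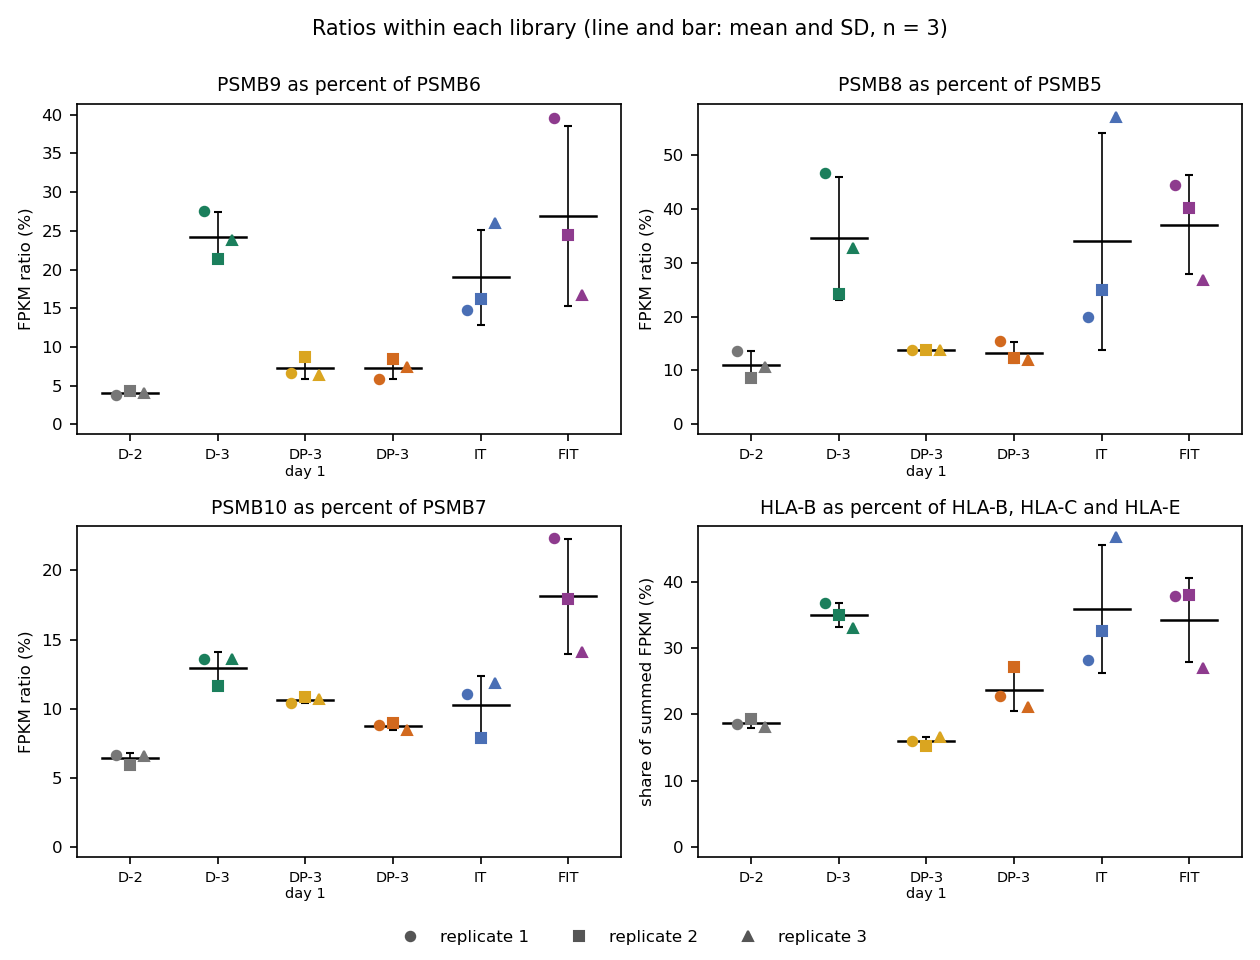
Ratios of FPKM within each library, in percent (vertical axes, from 0), for the 3 inducible proteasome subunits over their constitutive counterparts and for the share of HLA-B among the 3 heavy chains, by group (horizontal axes). Points are libraries, with the mean and SD (n = 3). PSMB9 over PSMB6 was 3.75% to 4.25% in D-2 and 21.3% to 27.6% in D-3.

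The comparisons below used edgeR's quasi-likelihood test on the 6 libraries of each pair. A gene was called where its adjusted p (Benjamini-Hochberg, over all genes tested) was below 0.05 and it differed at least 2-fold. Fold changes use TMM scaling. Scaling by library totals instead moves the median gene by -0.26 to 0.30 on the log2 scale, so the fold changes given differ in size from ratios of FPKM. For a single gene, exact permutation of 3 against 3 libraries has 0.1 as its smallest two-sided p. The labels do not say that libraries of a group came from separate cultures or animals, so the p-values measure the spread between these libraries, which may be technical.

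Flat culture against fresh tumor asked how far the usual culture is from tumor in vivo. In D-2, 6 of the 9 genes were called, all lower, where 14.6% of all genes were called and 10.8% were called lower. HLA-B fell most, to a level 6.47-fold lower (log2 fold change -2.69, 95% interval -3.65 to -1.73, adjusted p = 0.00460). PSMB9 was 4.10-fold lower (-2.03, -2.57 to -1.501, adjusted p = 0.00227) and TAP1 3.26-fold lower (-1.70, -2.35 to -1.06, adjusted p = 0.00551). HLA-C fell by 1.49, PSMB8 by 1.42 and HLA-E by 1.21 on the log2 scale. B2M (-0.68, adjusted p = 0.00469) and TAPBP (-0.63, adjusted p = 0.00464) passed the test of edgeR but not the 2-fold minimum. TAP2 differed by 0.04 (-0.44 to 0.53, adjusted p = 0.891). The median log2 fold change of the 9 genes was -1.42, against -0.09 over all genes tested. In FPKM, 8 of the 9 genes were lower in every D-2 library than in every FIT library, which held for 31.0% of all genes. Endothelial marker sums were higher in FIT as well (3.90 to 6.08 against 1.54 to 1.73 FPKM), and their part in the difference was not tested. In bulk RNA, fewer cells of a type and less RNA per cell cannot be told apart. Without D-2 replicate 1, HLA-E had an adjusted p of 0.0518.

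Printed tissue on day 14 was then set against fresh tumor. In DP-3, 6 of the 9 genes were called, all lower, where 4.82% of all genes were called and 3.16% were called lower. HLA-B was 4.73-fold lower (log2 fold change -2.24, -3.25 to -1.23, adjusted p = 0.0285 by edgeR), and PSMB9 was 2.95-fold lower (-1.56, -2.19 to -0.93, adjusted p = 0.0221). HLA-C fell by 1.43, HLA-E by 1.39, TAP1 by 1.29 and PSMB8 by 1.24. B2M (-0.31, -0.67 to 0.05), TAPBP (-0.29, -0.67 to 0.09) and TAP2 (-0.17, -0.67 to 0.33) did not pass. The median of the 9 was -1.29, against -0.06 over all genes, and 8 of the 9 did not overlap FIT and were lower, as were 21.6% of all genes. D-2 and DP-3 were compared with the same FIT libraries, so these results share their controls. The calls needed nearly all libraries: 0 of the 9 were called without DP-3 replicate 1, 2 or 3 or without FIT replicate 1 or 2, where the adjusted p of the 6 genes ran from 0.0528 to 0.0990 and their log2 fold changes from -2.49 to -1.06. All 6 were called without FIT replicate 3. Calls over all genes fell likewise, from 965 to between 90 and 250 in those 5 omissions, and were 1438 without FIT replicate 3.

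In D-3 against FIT, 0 of the 9 genes were called by edgeR, where 6.45% of all genes were called. PSMB8 came closest (log2 fold change -0.72, -1.17 to -0.27, adjusted p = 0.0598) and was lower in every D-3 library than in FIT. TAP1 was -0.64 (-1.29 to 0.01). HLA-B was -0.18, with an interval from -1.08 to 0.72, and HLA-E was 0.12, with an interval from -0.55 to 0.78, so these libraries cannot tell a 2-fold lower HLA-B in D-3 from no difference. B2M was -0.02 (-0.38 to 0.34) and PSMB9 was -0.09 (-0.62 to 0.44). At an unadjusted p below 0.05 by edgeR, 1 of the 9 passed, which was PSMB8, as did 5402 of the 21676 genes tested. DESeq2 called 0 of the 9.

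Cultured tumor pieces against fresh tumor gave 0 calls among the 9 genes by edgeR and by DESeq2, and the share of all genes called by edgeR was 0% of 21183, with 2693 at an unadjusted p below 0.05 and 661 called by DESeq2. Of the 9, PSMB8 (-0.56, -1.02 to -0.11) and PSMB9 (-0.70, -1.29 to -0.11) had an unadjusted p below 0.05 and were lower in every IT library than in FIT, as were 9.49% of all genes. The intervals were wide for HLA-B (0.03, -1.40 to 1.47, adjusted p = 0.989) and HLA-E (0.21, -0.74 to 1.16). IT replicate 3 set the sign of 4 genes: without it, the log2 fold change was -0.92 for HLA-B, -0.33 for HLA-E, -0.32 for B2M and -0.26 for TAPBP, none past the test.

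**Figure D3:**
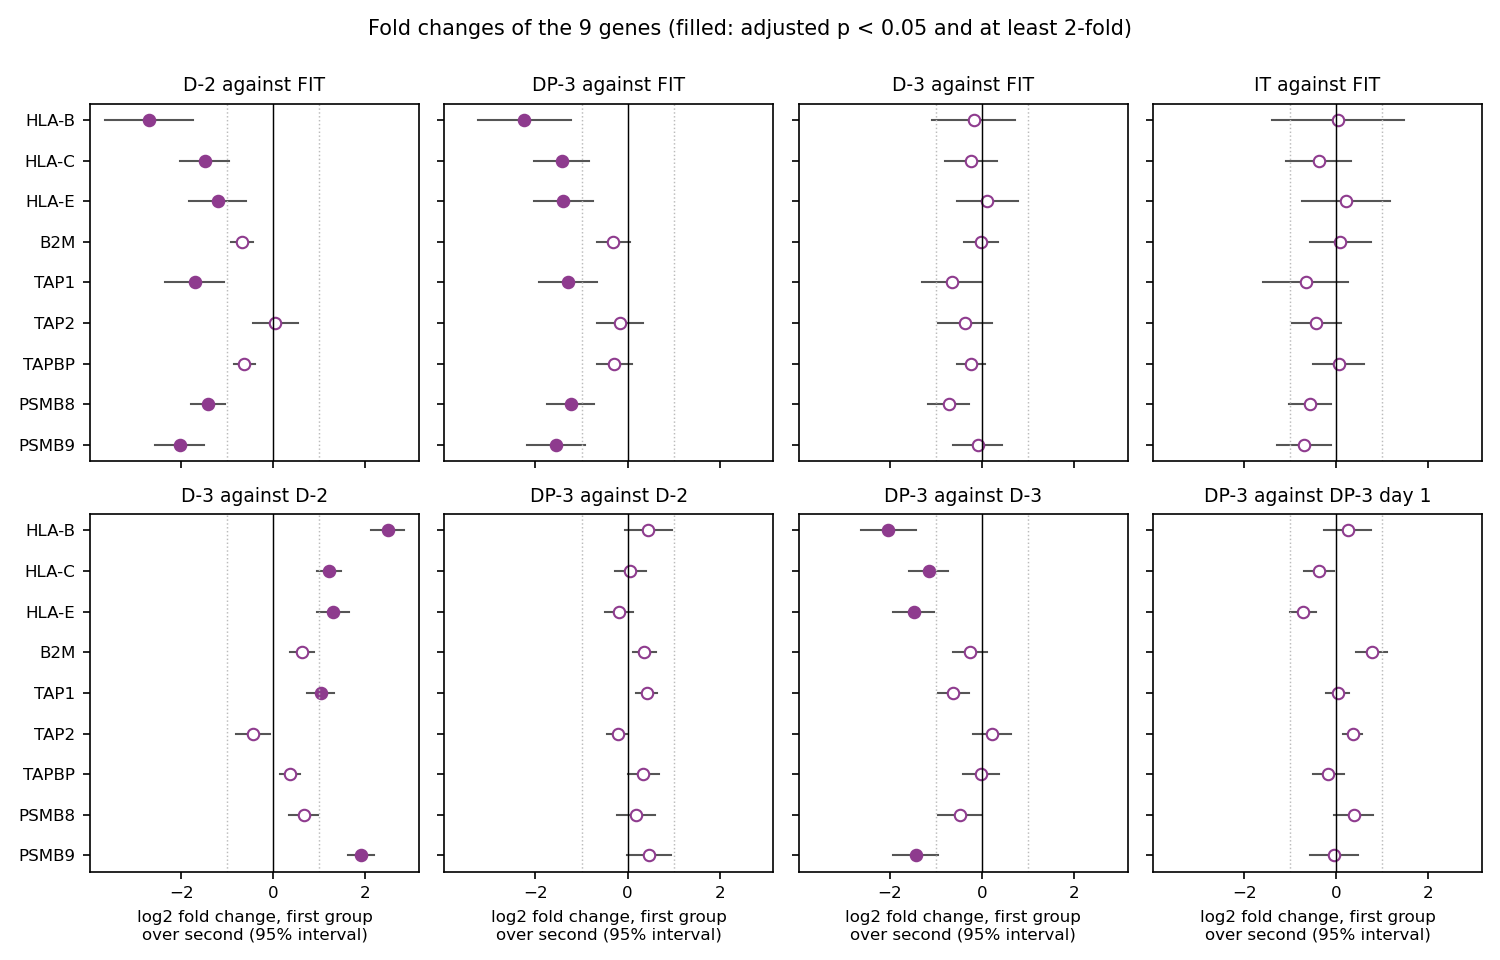
Log2 fold changes (horizontal axes, first group over second) of the 9 genes in 8 of the 9 comparisons, with 95% intervals from edgeR's quasi-likelihood fit. Filled points were called (adjusted p below 0.05 and at least 2-fold), and dotted lines mark 2-fold. HLA-B was at -2.69 in D-2 and -2.24 in DP-3 against FIT and at 2.48 in D-3 against D-2.

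Within culture, D-3 was compared with D-2. The groups differed in Matrigel and in flat growth, whose parts cannot be told apart. Here 5 of the 9 genes were called and higher, where 18.5% of all genes were called and 14.6% were called higher. HLA-B was 5.58-fold higher (log2 fold change 2.48, 2.12 to 2.84, adjusted p = 0.000642 by edgeR), and PSMB9 was 3.75-fold higher (1.91, 1.63 to 2.19, adjusted p = 0.000653). HLA-E rose by 1.29, HLA-C by 1.21 and TAP1 by 1.03 on the log2 scale. B2M (0.62), PSMB8 (0.66) and TAPBP (0.36) passed edgeR's test under the 2-fold minimum, which makes 8 of 9 with no minimum, against 35.5% of all genes. TAP2 had a log2 fold change of -0.45 (-0.82 to -0.08, adjusted p = 0.0621). The median of the 9 was 1.03, against 0.11 over all genes, and 8 of the 9 did not overlap and were higher in D-3, as were 38.6% of all genes. TAP1 stood near the 2-fold line, with 0.97 without D-3 replicate 1.

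DP-3 against D-2 gave 0 calls among the 9 genes by edgeR, where 1.04% of all genes were called. TAP1 (0.41, 0.18 to 0.64) and B2M (0.36, 0.11 to 0.62) were higher in every DP-3 library, with adjusted p of 0.0762 and 0.116 by edgeR. At an unadjusted p below 0.05 they passed with TAPBP (0.34), as did 4210 of the 18549 genes tested. HLA-B was 0.45 (-0.07 to 0.97), HLA-C was 0.06 (-0.28 to 0.40) and HLA-E was -0.19 (-0.49 to 0.11), so changes of 2-fold lay outside all 3 intervals. DESeq2 called 0 as well. DP-3 against D-3 gave 4 calls, all lower in printed tissue, where 9.12% of all genes were called and 7.15% were called lower. HLA-B was 4.10-fold lower (-2.04, -2.63 to -1.44, adjusted p = 0.00646 by edgeR), HLA-E 2.79-fold (-1.48), PSMB9 2.71-fold (-1.44) and HLA-C 2.23-fold (-1.16). TAP1 was -0.62 (adjusted p = 0.0297), under the 2-fold minimum. In FPKM, 8 of the 9 were lower in every DP-3 library than in every D-3 library, as were 30.2% of all genes. DP-3 and D-3 differed in their matrix and in the printing, whose parts cannot be told apart.

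From day 1 to day 14 in bioink, 0 of the 9 genes were called between DP-3 and DP-3 day 1 by edgeR or DESeq2. Over all genes 7.56% were called by edgeR. At an unadjusted p below 0.05 by edgeR, 4 of the 9 passed, as did 7446 of the 20774 genes tested. With no fold minimum 3 passed edgeR's test, against 22.1% of all genes: B2M (0.76, 0.43 to 1.10, adjusted p = 0.0110) and TAP2 (0.36, adjusted p = 0.0297) rose, and HLA-E fell by 0.72 (adjusted p = 0.00860). The light chain and a heavy chain thus went opposite ways. HLA-B was 0.25 (-0.26 to 0.76) and PSMB9 was -0.05 (-0.57 to 0.47). On day 1 against D-2, 0 of the 9 were called by either tool, where 17.2% of all genes were called, and 8 passed edgeR's test with no fold minimum, against 45.7% of all genes. HLA-E (0.52), PSMB9 (0.51), TAPBP (0.50), HLA-C (0.42), TAP1 (0.37) and HLA-B (0.18) were higher on day 1, and TAP2 (-0.59) and B2M (-0.42) lower. DP-3 day 1 libraries stood apart in the number of genes at 0.1 FPKM or more, with 24694 to 24791 against 17716 to 22322 in the other groups, and the part of this in the result was not tested.

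Of 7 further class I or class I-like heavy chains, 5 could be tested. Of these, 3 were lower in D-2 against FIT, 2 lower in DP-3 against FIT, 3 higher in D-3 against D-2 and 2 lower in DP-3 against D-3. Over all genes the shares called in these directions were 10.8%, 3.16%, 14.6% and 7.15%, in the same order. HLA-F, which is mostly held inside the cell, was lowest in D-2 (0.961, 0.770 and 0.906 FPKM) and highest in FIT (7.80, 5.44 and 3.40 FPKM), with log2 fold changes of -2.49 in D-2 and -2.07 in DP-3 against FIT (adjusted p = 0.00274 and 0.0199 by edgeR). FCGRT was also called in D-2 against FIT, but its level never exceeded 0.622 FPKM. In D-2 it stayed at or below 0.0442 FPKM, so it could be tested there only because FIT was higher. HFE, which regulates iron uptake, and MR1, which presents vitamin B metabolites, were called in 0 of the 9 comparisons, and in D-2 against FIT had log2 fold changes of 0.65 (adjusted p = 0.327 by edgeR) and 0.51 (adjusted p = 0.152). HLA-G reached at most 0.0354 FPKM.

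Among 7 genes of peptide loading and trimming, 1 was called in D-2 against FIT, 1 in D-3 against D-2 and 1 in DP-3 day 1 against D-2, with 0 in the other 6 comparisons. Over all genes 14.6%, 18.5% and 17.2% were called in the comparisons named, in that order, so 1 of 7 did not exceed these shares. TAPBPL, a tapasin-related peptide editor, was lower in D-2 than in FIT (log2 fold change -1.67, adjusted p = 0.00238 by edgeR). ERAP1, which trims peptides in the endoplasmic reticulum, was higher in D-3 than in D-2 (1.05, adjusted p = 0.00212). The general chaperones CALR, CANX and PDIA3 were not called in any comparison. Of 8 other proteasome genes, PSMB10 alone was called, in D-2 against FIT (-1.17, adjusted p = 0.00277 by edgeR), where 14.6% of all genes were called. PSMB10 missed the 2-fold minimum in DP-3 against FIT (-0.997, adjusted p = 0.0291). The constitutive PSMB6 went the other way in D-2 against FIT (0.66, adjusted p = 0.00703).

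Of 24 regulators, mostly of interferon signalling and of MHC transcription, 23 were tested in D-2 against FIT. Of these, 5 were called, all lower, where 10.8% of all genes were called lower. STAT2 (log2 fold change -2.16), IRF9 (-2.14), both parts of the complex that binds the ISRE, and NLRC5 (-2.01), the transactivator of class I genes, had the largest changes, with adjusted p of 0.00332, 0.00480 and 0.00357 by edgeR. In DP-3 against FIT 5 of 23 were lower, led by NLRC5 (-1.70), IRF9 (-1.41) and JAK2 (-1.30), where 3.16% of all genes were called lower. In D-3 against D-2 3 of 23 were higher, IRF9 (2.35), IRF1 (2.09) and STAT2 (1.72). Over all genes 14.6% were called higher there, so this count did not exceed the share of all genes. In DP-3 against D-3, where 9.12% of all genes were called, IRF9 (-1.63) and IRF1 (-1.502) were lower and IFNAR1, an interferon receptor chain, was higher (1.08).

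The level of NLRC5 was 12.3, 11.2 and 5.76 FPKM in FIT, 2.13, 3.37 and 2.26 FPKM in D-3, and 2.08, 2.29 and 2.15 FPKM in D-2, and in all cultures it stayed at or below 4.38 FPKM. It was the 1 of 24 regulators called in D-3 against FIT (log2 fold change -1.98, -2.71 to -1.24, adjusted p = 0.0123 by edgeR), while 0 of the 9 class I genes were. Over all genes 6.45% were called there. IRF1, an interferon-induced factor that binds ISRE sites, had 7.31, 6.43 and 8.53 FPKM in D-3, 1.45, 1.52 and 1.42 FPKM in D-2, and 2.49, 2.46 and 1.81 FPKM in DP-3. In DP-3 day 1 it had 4.70, 5.27 and 5.21 FPKM, 1.48 above D-2 on the log2 scale (adjusted p = 3.21e-05), at a time when 0 of the 9 class I genes reached 2-fold.

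**Figure D4:**
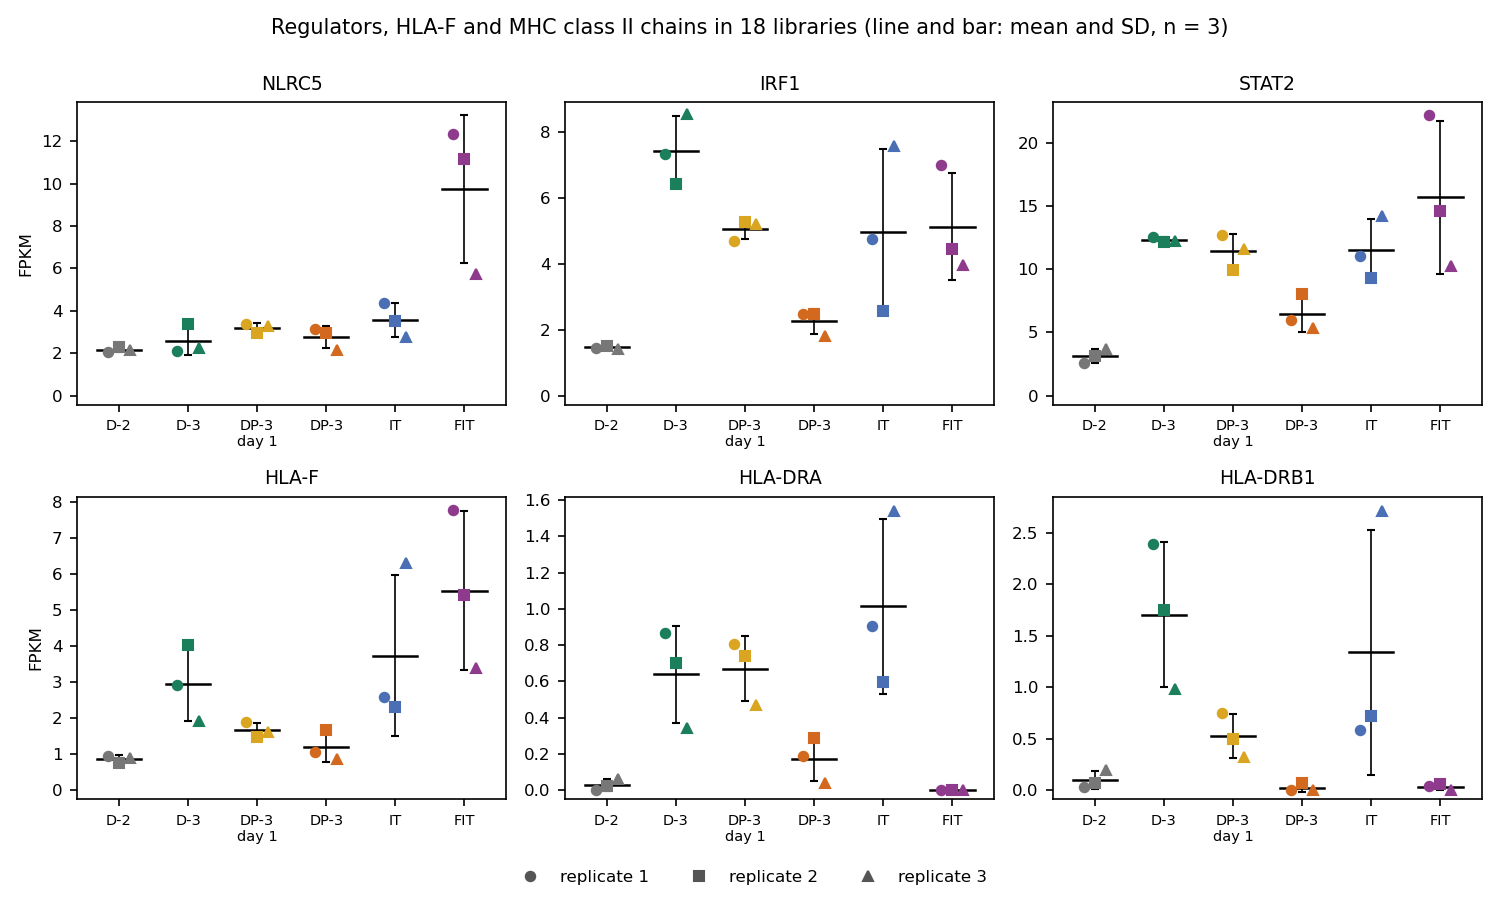
FPKM (vertical axes, from 0) of 3 regulators, the heavy chain HLA-F and 2 MHC class II chains in every library of the 6 groups (horizontal axes). Points are libraries, with the mean and SD (n = 3). NLRC5 was highest in the 3 FIT libraries (5.76 to 12.3 FPKM), whereas HLA-DRA was listed at 0 in all 3 and reached 0.346 to 0.869 FPKM in D-3.

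MHC class II genes, which present peptides to CD4 T cells, were set beside class I. Of the 9 listed, 6 could be tested in D-3 against FIT, and 5 were called higher in D-3, where 4.29% of all genes were called higher. The same count, 5 of 6, was higher in D-3 against D-2, 3 of 6 were lower in DP-3 against D-3, and 0 of 2 were called in D-2 against FIT. Over all genes 14.6% were called higher in D-3 against D-2 and 7.15% lower in DP-3 against D-3. HLA-DMA, which helps load class II peptides, was the most abundant, with means of 2.04 FPKM in FIT and 4.62 FPKM in D-3, and the others had group means of at most 1.71 FPKM. HLA-DRA was listed at 0 in the 3 FIT libraries, at 0.869, 0.704 and 0.346 FPKM in D-3, and at 0.906, 0.596 and 1.54 FPKM in IT. HLA-DRB1 had 2.39, 1.75 and 0.980 FPKM in D-3 and at most 0.0573 FPKM in FIT. In IT against FIT all 6 class II genes tested were higher in every IT library, as were 11.1% of all genes, with 0 called. A gene was tested only if it reached 0.1 FPKM in 3 or more of the 6 libraries compared. HLA-DRA, HLA-DRB1 and HLA-DMB stayed below 0.1 FPKM in every FIT library, so they could be tested against FIT only where the other group was higher. The same held for HLA-DRA, HLA-DMB and CD74 in D-2. HLA-DRB1 exceeded 0.1 FPKM in D-2 only in replicate 3 (0.194 FPKM), and HLA-DPA1 in FIT only in replicate 2 (0.124 FPKM). These genes too passed the filter there only through the higher group. The class II counts were therefore not a test of direction. CIITA, the transactivator of class II, reached at most 0.799 FPKM, in IT replicate 3. The macrophage marker CD163, at most 0.727 FPKM in any library, was also called higher in D-3 than in FIT and D-2 and lower in DP-3 than in D-3, and the part of such cells in the class II levels was not tested. Of the other macrophage markers, ITGAM had 0.145 to 0.252 FPKM in D-3, above its levels in D-2 (0 to 0.0140 FPKM), DP-3 (0 to 0.0430 FPKM) and FIT (0.0238 to 0.118 FPKM), and was called in D-3 against D-2, while AIF1 was at 0 in 16 of the 18 libraries. Of 5 macrophage markers tested in D-3 against D-2, 2 were called, both higher, where 14.6% of all genes were called higher. These were CD163 and ITGAM. Both stayed below 0.1 FPKM in every D-2 and DP-3 library, so they could be tested there only because D-3 was higher. With no fold minimum, 3 of the 5 were higher and 1 was lower at an adjusted p below 0.05 by edgeR. Over all genes 19.2% were higher and 16.3% lower by that rule.

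Of 10 interferon-induced genes, 4 were lower in D-2 against FIT (MX1 by a log2 fold change of -2.004, ISG15 by -1.58 and OAS1 by -1.43 among them), where 10.8% of all genes were called lower. MX1 had a low level, at most 0.412 FPKM in any library. In D-2 it had 0.0330, 0.0331 and 0.102 FPKM, so it could be tested against FIT or D-3 only because they were higher. In D-3 against D-2, 5 were higher, where 14.6% of all genes were called higher. In DP-3 against D-3, 2 were lower, where 7.15% of all genes were called lower. In DP-3 against D-2, 4 of the 10 were higher, led by IDO1 (2.66), IFIT2 (1.92) and IFIT3 (1.62). There, 0.722% of all genes were called higher and 0 of the 9 class I genes were called. IDO1 had a low level, at most 0.127 FPKM in D-2 and at most 0.821 FPKM in DP-3. IFIT2 was highest in DP-3 day 1, at 56.2, 53.7 and 56.8 FPKM, against 6.12, 5.70 and 4.54 FPKM in D-2 and 17.6, 8.50 and 8.53 FPKM in FIT. In DP-3 against FIT 0 of the 10 were called, with 6 of the 9 class I genes lower. Of 12 ligands that natural killer and T cells read, 1 was called in D-2 against FIT, PDCD1LG2 (PD-L2), which was higher in D-2 (adjusted p = 0.00400 by edgeR), and 0 in DP-3 against FIT. Over all genes 14.6% and 4.82% were called in these comparisons.

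The genes whose pattern over the 18 libraries was most like the mean pattern of the 9 members were ranked by Pearson's r of log2(FPKM + 0.1) among 14024 genes. The 10 nearest had r of 0.904 to 0.961. They included HLA-F (0.961), HELZ2 (0.953), SHFL (0.947), CST3 (0.942), BST2 (0.930), TSPYL4 (0.927) and, below these, PSMB8-AS1 and PSME2 (both 0.904). BST2, also called tetherin, had mean levels of 16.6 FPKM in D-2, 38.9 FPKM in DP-3, 75.4 FPKM in D-3, 82.3 FPKM in IT and 115 FPKM in FIT. PSMB8-AS1 overlaps PSMB8, TAP1 and PSMB9, so its reads may be shared with theirs. The members shared their libraries and came in groups of 3, so these values are descriptions. Set against the mean of the other members, r was 0.966 for HLA-C at the highest and 0.0918 for TAP2 at the lowest, with 0.586 for TAPBP.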

How the data were processed

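Poly(A) RNA of 18 libraries was sequenced as strand-marked read pairs. The submitters' processing notes name Cutadapt 1.9, HISAT2 2.0.4, StringTie 1.3.4d, DESeq2 and edgeR. The genome build and annotation, the handling of mouse reads and the use of strand in counting are not given in the sources used here. The deposited table holds the authors' FPKM and the authors' estimated counts (about 4 per read pair) for each gene and library. Levels and ratios were taken from FPKM. Estimated counts, as deposited, were tested with edgeR 4.0.16 in R 4.3.3 (quasi-likelihood, TMM), each comparison on its own 6 libraries, for genes that reached 0.1 FPKM in 3 or more of them. Adjusted p-values (Benjamini-Hochberg) covered all genes tested, and a call needed an adjusted p below 0.05 and a 2-fold difference. The test of any difference used all 18 libraries. The fits were tested on simulated data. Alternatives used DESeq2 1.42.0, limma 3.58.1 on log2(FPKM + 0.1) and log2(FPKM + 1), other scalings and filters, a replicate block and the omission of single libraries. The members and lists were chosen with earlier results of these data known. The genes named were the 9 members, at most the 3 called genes with the largest change per list and comparison, PSMB5, PSMB6, PSMB7 and PSMB10, and genes among the 10 most correlated with the members' mean. Markers, HLA-DMA, HLA-DRA, HLA-DRB1, HLA-G, HFE, MR1, CALR, CANX, PDIA3, CIITA and genes named in the closing section were chosen after their values were seen. Not all named genes are reported here. No 2 libraries of a group were duplicates, with a chi-square per gene of at least 11.8.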

Additional observations from a re-analysis of the deposited data

How the results depend on the processing

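Over the alternatives, 1126 values of single genes kept their direction and their side of the threshold, 38 kept their direction but lost the call, and 51 changed sign, of which none was a called value. In DP-3 against FIT, 3 genes were called with limma on log2(FPKM + 0.1), with HLA-B, HLA-E and TAP1 lost. With no fold minimum, 3 genes were called in DP-3 against DP-3 day 1, 8 in D-3 against D-2 and 8 in DP-3 day 1 against D-2. Leaving out single libraries gave 0 to 6 calls in DP-3 against FIT, 5 to 6 in D-2 against FIT, 4 to 5 in D-3 against D-2, 4 in DP-3 against D-3, 0 in the other 5 comparisons, and 7 to 8 genes in the test of any difference. The cause was not tested.

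Scaling by library totals with no TMM factor was chosen after seeing the data. It changed no count of calls, and the log2 fold change became -0.11 for TAP2 in D-2 against FIT, 0.047 for B2M in D-3 against FIT, -0.23 for TAP1 in DP-3 against DP-3 day 1, -0.0082 for TAP2 in DP-3 against D-3 and 0.084 for PSMB8 in DP-3 day 1 against D-2. With limma and pseudocounts of 0.1 and 1, the values were -0.066 and -0.065 for TAP2 in D-2 against FIT, 0.043 and 0.041 for HLA-B, 0.039 and 0.038 for B2M and 0.014 and 0.0096 for PSMB9 in D-3 against FIT, and -0.10 and -0.10 for HLA-B and -0.0034 and -0.0019 for TAPBP in IT against FIT. They were -0.067 and -0.063 for HLA-B and -0.24 and -0.21 for TAP1 in DP-3 against DP-3 day 1, and 0.091 and 0.082 for PSMB8 in DP-3 day 1 against D-2. With an FPKM minimum of 1, TAP2 was -0.086 in D-2 against FIT and TAP1 was -0.079 in DP-3 against DP-3 day 1. With no filter, PSMB9 was 0.0044 in DP-3 against DP-3 day 1, and TAP1 was 0.99 in D-3 against D-2, under 2-fold.

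Leaving out single libraries moved the log2 fold change across 0 for TAP2 in D-2 against FIT (-0.20 to 0.18). In D-3 against FIT it ran from -0.56 to 0.056 for HLA-B, -0.17 to 0.28 for HLA-E, -0.094 to 0.059 for B2M and -0.30 to 0.15 for PSMB9. In IT against FIT it ran from -0.92 to 0.36 for HLA-B, -0.33 to 0.47 for HLA-E, -0.32 to 0.29 for B2M and -0.26 to 0.26 for TAPBP. It ran from -0.054 to 0.072 for TAP1 and -0.19 to 0.13 for PSMB9 in DP-3 against DP-3 day 1, from -0.040 to 0.21 for HLA-C in DP-3 against D-2, and from -0.21 to 0.055 for TAPBP in DP-3 against D-3.

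The correlations of same-numbered deviations from group means ran from -0.0998 to 0.0433. With 3 libraries per group, values near 0 cannot show whether libraries of the same number came from the same tumor or culture. With the replicate block, 4 of the 9 genes were called in DP-3 against FIT, with HLA-E (adjusted p = 0.0526 by edgeR) and TAP1 (adjusted p = 0.0689) lost. The counts of the other comparisons were as without it, and in IT against FIT HLA-B was -0.23 and TAPBP -0.0017. FIT replicate 3 had the fewest counts, and 3 libraries per group limited every interval.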

Other observations

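The stretch of chromosome 6 from HLA-F to TAPBP was described after the data had been seen, and its members among the 9 genes were left out. Of 278 other genes listed there, 149 were tested in D-2 against FIT by edgeR, of which 29 were lower and 1 was higher, with a median log2 fold change of -0.52, where 10.8% of all genes were lower and their median was -0.09. In D-3 against D-2, 35 of 157 were higher and 2 lower, with a median of 0.37, where 14.6% of all genes were higher and their median was 0.11. Complement genes of the class III region were among them, with CFB and C4B called in both. In DP-3 against D-2, 2 of 138 were called, the heat shock genes HSPA1A and HSPA1B, both higher, where 1.04% of all genes were called, a share near that of the stretch.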
